A study of Homo sapiens with 8 samples.

Results

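Mitochondrial ribosomal protein genes are nuclear genes that encode the protein part of the mitoribosome, and their promoters were examined here for endogenous G-quadruplexes (G4s), four-stranded DNA structures held by stacked guanines. The members are the protein-coding genes whose symbol starts with MRPL or MRPS, for large and small subunit, followed by a digit. There are 78 of them among 20175 protein-coding genes of the GENCODE annotation on hg19, 49 MRPL and 29 MRPS, spread over 21 chromosomes. A member was scored by whether a G4 interval of a list lay within 1 kb of any of its transcription start sites (TSSs), with an overlap of at least 1 bp.

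The G4s had been mapped by ChIP-seq, with the antibody BG4, in untreated K562 cells, a human chronic myelogenous leukemia line, and untreated HepG2 cells, a human hepatocellular carcinoma line. The labels name 3 G4 ChIP libraries and 1 input library for each line, and the series text describes the 3 as technical replicates. For each line 1 high-confidence and 1 lower-confidence list were available, built from 8 replicates in K562 and 9 in HepG2. These replicates came from 3 independent experiments per line with technical repeats, so 2 replicates of a list can belong to the same experiment. A high-confidence interval was present in at least 5 of 8 or 6 of 9 replicates, and a lower-confidence interval in at least 2. The lists hold 9205 and 19249 intervals in K562 and 8805 and 28387 in HepG2. They give positions only, with no read count, peak height, input value or replicate name, so depth is unknown and no spread between replicates could be computed. They hold no expression either, so the labelled lines were not checked against marker genes. Counts of genes are given with 95% Wilson intervals that cover the counting of genes only. No test was made, and shares of members stand beside the share over all protein-coding genes, expressed or not, where that was computed.

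The mitoribosome translates the few proteins that the mitochondrial genome still encodes, which are core subunits of the respiratory chain complexes. Every one of its proteins is made in the cytosol from a nuclear gene and imported. Some are homologues of bacterial ribosomal proteins and others were added in the mitochondrial lineage. Genes for mitochondrial proteins are broadly expressed, often start in CpG islands, and are known as targets of NRF1, of ETS factors such as GABP, and of YY1.

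The sequences at some member promoters show the range of DNA that lay in high-confidence intervals. A complete G4 motif is taken as 4 or more runs of at least 3 G, joined by loops of 1 to 7 bases, on either strand. Only 4 members held such a motif in a high-confidence interval of both lines, and these are shown 5′ to 3′ on the G-rich strand with the G-runs in capitals (hg19). The motif of MRPL18 lies at chr6:160210653-160210676, minus strand, that of MRPL38 at chr17:73901046-73901068, minus strand, and that of MRPS24 at chr7:43909192-43909217, plus strand.
MRPL18: GGGccGGGGcagccGGGaagcGGG
MRPL38: GGGcccGGGGGcGGGcctaGGGG
MRPS24: GGGGGcGGGGcaGGGcctctgcGGGG
For MRPL41, which encodes a large subunit protein without a bacterial counterpart, the motifs of both lines fall in 1 uninterrupted stretch upstream of the gene at chr9:140446104-140446238, minus strand. It has 18 G-runs in 135 bases.
MRPL41: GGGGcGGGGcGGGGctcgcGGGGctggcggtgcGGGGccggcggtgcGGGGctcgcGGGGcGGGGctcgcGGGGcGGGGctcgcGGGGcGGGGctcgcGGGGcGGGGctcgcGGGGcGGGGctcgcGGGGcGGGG
This strand, which is opposite to the transcript, has no run of 3 C there, and the GC content of the stretch is 92.6%.

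Most member intervals looked different, and a pair of them is shown for that reason, chosen after their values were seen. The HepG2 interval upstream of MRPS26, a small subunit gene, is shown from its start to the last base before the transcript (chr20:3026498-3026697, plus strand). It has 11 runs of at least 3 G in 200 bases, but no 4 of them lie close enough for a complete motif.
MRPS26: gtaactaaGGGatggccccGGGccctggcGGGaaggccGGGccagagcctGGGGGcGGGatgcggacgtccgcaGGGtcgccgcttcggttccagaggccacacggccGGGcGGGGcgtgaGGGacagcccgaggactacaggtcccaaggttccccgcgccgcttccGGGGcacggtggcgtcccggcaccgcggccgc
The whole K562 interval upstream of MRPS23, another small subunit gene, is at chr17:55927421-55927613, minus strand. It has 1 run of at least 3 G in 193 bases on the strand shown, that of the transcript, and 5 on the other, and neither strand holds a motif even when runs of 2 G are allowed.
MRPS23: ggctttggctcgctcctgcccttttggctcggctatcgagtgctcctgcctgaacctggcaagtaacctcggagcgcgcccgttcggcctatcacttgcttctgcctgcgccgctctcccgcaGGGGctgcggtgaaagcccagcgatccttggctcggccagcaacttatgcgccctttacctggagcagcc

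High-confidence intervals were found at 38 members in K562 (48.7%, Wilson interval 37.9 to 59.6) and at 38 in HepG2 (48.7%, 37.9 to 59.6). Over all protein-coding genes the shares were 35.6% in K562 and 30.8% in HepG2, below the Wilson intervals of the members in both lines. The lower-confidence lists held an interval at 61 members in K562 (78.2%, 67.8 to 85.9) and at 66 in HepG2 (84.6%, 75 to 91.0), against 50.1% and 51.3% of all protein-coding genes. The background holds genes that are silent in either line, and expression was not measured here, so its part in these differences was not tested. Most mitoribosomal promoters thus had a G4 interval that recurred in at least 2 replicates of a line.

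A high-confidence interval in both lines was found at 31 members (39.7%, 29.6 to 50.8), against 24.3% of all protein-coding genes. The large subunit genes among them were MRPL2, MRPL4, MRPL10, MRPL11, MRPL14, MRPL17, MRPL18, MRPL32, MRPL34, MRPL37, MRPL38, MRPL41, MRPL45, MRPL49, MRPL51, MRPL54, MRPL55 and MRPL57. The small subunit genes were MRPS7, MRPS9, MRPS12, MRPS14, MRPS16, MRPS17, MRPS18B, MRPS23, MRPS24, MRPS26, MRPS27, MRPS33 and MRPS36. They include the gene of the stalk base protein, MRPL10, and that of MRPS12, the homologue of the bacterial decoding centre protein S12. MRPS36 carries a ribosomal symbol although its product is known as a part of the 2-oxoglutarate dehydrogenase complex.

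Of the members with a high-confidence interval in only 1 line, all but MRPL52 had a lower-confidence interval in the other. High confidence in K562 with lower confidence in HepG2 was seen at 7 members (8.97%), near the 8.18% of all protein-coding genes. These were MRPL20, MRPL40, MRPS2, MRPS5, MRPS6, MRPS25 and MRPS35. The reverse was seen at 6 members (7.69%), MRPL12, MRPL16, MRPL33, MRPL50, MRPL58 and MRPS10, against 4.1%. MRPL12 encodes the stalk protein of the large subunit and MRPL58 a peptidyl-tRNA hydrolase built into it. Presence was scored per gene and not per site. At MRPL58 the high-confidence HepG2 interval (chr17:73008994-73009076) did not overlap the K562 one (chr17:73008597-73008853). No member (0 of 78, upper Wilson bound 4.69%) had a high-confidence interval in K562 and no interval of either list in HepG2, a pattern of 3.2% of all protein-coding genes. The reverse pattern held for MRPL52 alone (1 of 78, 1.28%, 0.227 to 6.91), against 2.43%.

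At these 13 members the widest lower-confidence intervals of the lines were compared. At MRPL58 the widest in HepG2, of 286 bp, was not the one of 224 bp that held its high-confidence interval. All 7 members with high confidence in K562 had the wider one in K562. Of the 6 with high confidence in HepG2, 4 had the wider one in HepG2 and 2, MRPL12 and MRPL16, in K562. The classes were set by the high-confidence list of the same line, so these directions are not independent of the selection. They were not counted for other genes. The differences ranged from small, as at MRPS35 with 201 bp in K562 and 194 bp in HepG2, to large. MRPL40 had a high-confidence interval of 454 bp in K562, where its lower-confidence interval was 654 bp wide, and in HepG2 its widest lower-confidence interval was 262 bp. MRPS6, a small subunit gene with a bacterial homologue, had 424 bp in the high-confidence and 489 bp in the lower-confidence K562 list, and 143 bp in the lower-confidence HepG2 list. MRPS2, the homologue of bacterial S2, had high-confidence K562 intervals at 2 sites, of 47 bp upstream of the canonical transcript and 70 bp in an intron. At the upstream site the lower-confidence intervals were 267 bp in K562 and 167 bp in HepG2. At the intronic site they were 194 bp and 75 bp. In each of these 3 genes the widest lower-confidence interval was thus in K562. In the other direction, MRPL50 had a high-confidence HepG2 interval of 343 bp within a lower-confidence one of 432 bp, and 297 bp in the lower-confidence K562 list. MRPL12 had a high-confidence HepG2 interval of 119 bp, but its lower-confidence interval was 158 bp wide in HepG2 and 283 bp in K562. MRPL16 had 121 bp, 219 bp and 251 bp in the same order. For both genes the wider lower-confidence interval was thus in the line without a high-confidence one.

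MRPL52, a large subunit gene without a bacterial counterpart, had a high-confidence HepG2 interval of 148 bp at chr14:23299026-23299173, centred 3 bp downstream of its TSS. The lower-confidence HepG2 interval around it was 410 bp wide. Neither K562 list had an interval within 1 kb of any TSS of the gene. Its GC content was 59.5% and it held no complete motif. The TSS of SLC7A7, an amino acid transporter gene on the opposite strand, lies 59 bp away, so the interval cannot be assigned to a single gene.

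Only lower-confidence intervals were found at 24 members. They were present in both lines at 14 of these, MRPL19, MRPL23, MRPL28, MRPL36, MRPL39, MRPL44, MRPL47, MRPL48, MRPS15, MRPS21, MRPS28, MRPS30, MRPS31 and MRPS34 (17.9% of members against 5.99% of all protein-coding genes). At 7 they were present in HepG2 only, namely MRPL22, MRPL24, MRPL27, MRPL30, MRPL42, MRPL53 and MRPS18C (8.97% against 6.31%). At 3, MRPL15, MRPL21 and MRPS18A, they were present in K562 only (3.85% against 4.41%). The 3 homologues of the bacterial protein S18 thus fell into 3 classes, with MRPS18B in both high-confidence lists, MRPS18A in the lower-confidence list of K562 and MRPS18C in that of HepG2.

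**Figure D1:**
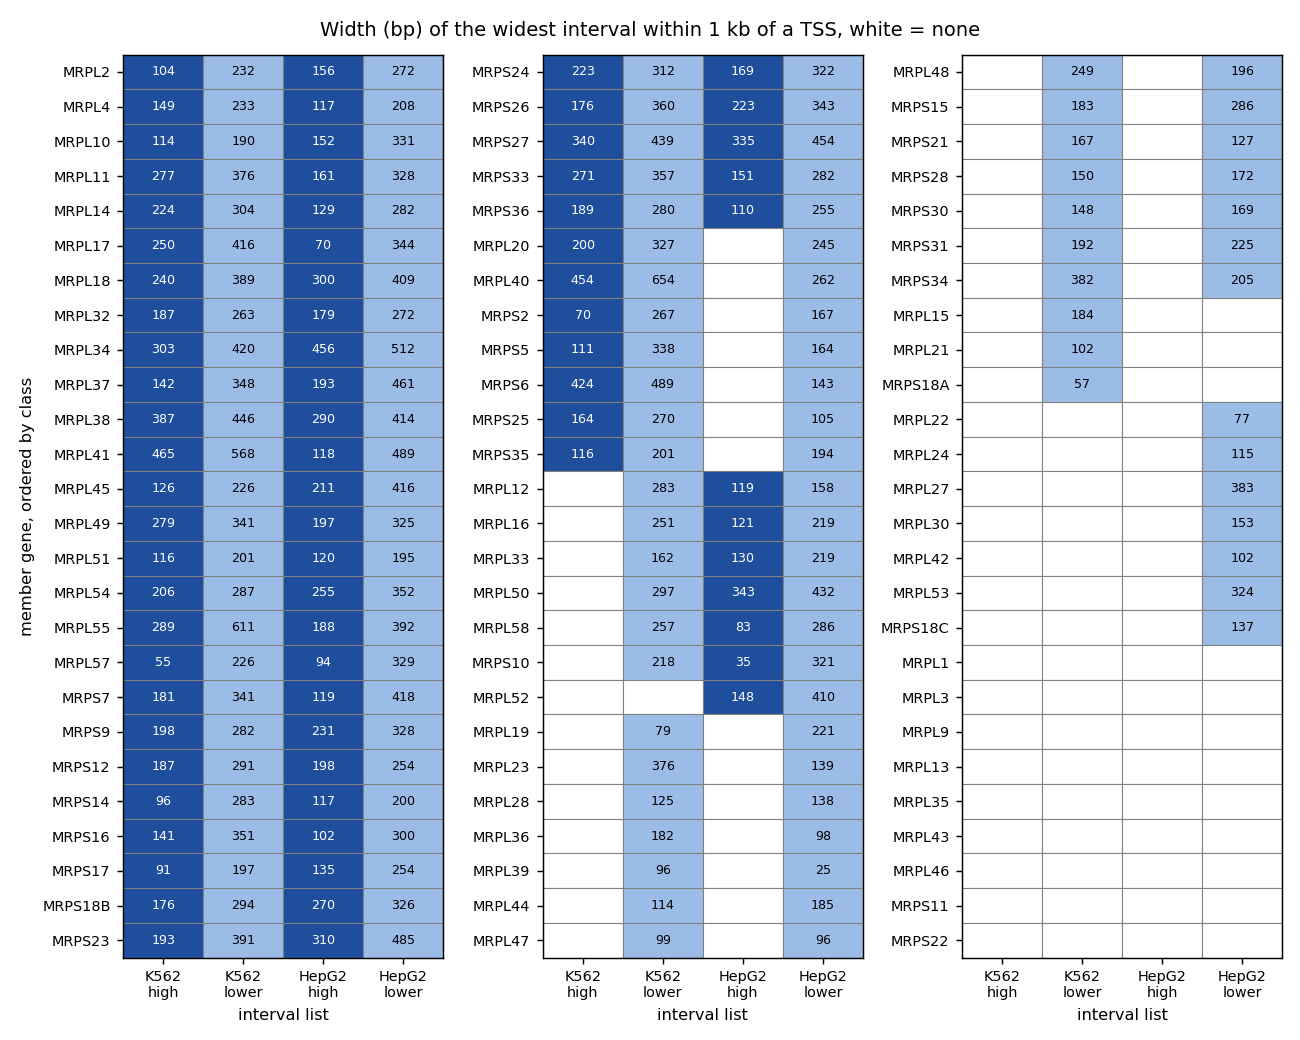
Width in bp of the widest interval within 1 kb of a TSS for each of the 78 members (rows) in the 4 lists (columns); dark cells are high-confidence lists, light cells lower-confidence lists and white cells have no interval. The first 31 genes have an interval in every list and the last 9 in none.

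No interval of any list was found at 9 members (11.5%, 6.19 to 20.5), against 41.1% of all protein-coding genes. These were MRPL1, MRPL3, MRPL9, MRPL13, MRPL35, MRPL43, MRPL46, MRPS11 and MRPS22. MRPL3 is the homologue of the bacterial protein L3, which lies near the peptidyl transferase centre. The nearest high-confidence K562 interval was 3719 bp from a TSS of MRPL35 and 5982 bp from one of MRPS22. At the other 7 it was farther away, for example 26955 bp for MRPL9, 42470 bp for MRPL1 and 540330 bp for MRPL13. In the lower-confidence K562 list an interval lay 2992 bp from a TSS of MRPS22. Distances run from the interval to the closest TSS of the gene.

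MRPL46 and MRPS11, the latter the homologue of bacterial S11, share 1 head-to-head promoter in which the outermost TSSs are 63 bp apart, and so count as 2 members without an interval on the strength of 1 stretch of DNA. The bases between the TSSs (chr15:89010622-89010683, plus strand, runs of at least 3 G in capitals) are shown as an example of a member promoter outside every list. They hold 3 such runs on this strand.
MRPL46 to MRPS11: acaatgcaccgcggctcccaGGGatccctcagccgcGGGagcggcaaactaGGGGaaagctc
The closest high-confidence interval was 79073 bp from a TSS of MRPL46 in K562 and 79209 bp in HepG2. From the closest TSS of MRPS11, whose TSSs span 9272 bp, it was 69738 bp in K562 and 69874 bp in HepG2. Other members without an interval also faced a neighbour. MRPL43 starts 21 bp from TWNK, which encodes the mitochondrial DNA helicase Twinkle, MRPL13 starts 17 bp from MTBP, and MRPL9 starts 82 bp from OAZ3.

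By symbol, 18 of 29 MRPS genes (62.1%, 44 to 77.3) and 20 of 49 MRPL genes (40.8%, 28.2 to 54.8) had a high-confidence interval in K562. In HepG2 the shares were 48.3% (14 genes) and 49% (24 genes). The Wilson intervals overlapped in both lines, and the difference was not tested. The symbol does not always give the subunit, since the products of MRPS18A and MRPS30 are known to sit in the large one. A high-confidence interval in both lines was present at 13 MRPS (44.8%) and 18 MRPL genes (36.7%). By ancestry, 22 of 48 genes with a bacterial homologue (45.8%, 32.6 to 59.7) and 16 of 30 mitochondria-specific genes (53.3%, 36.1 to 69.8) had one in K562, and the counts in HepG2 were also 22 and 16. Both lines had one at 18 (37.5%) and 13 (43.3%) of them. The Wilson intervals again overlapped.

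**Figure D2:**
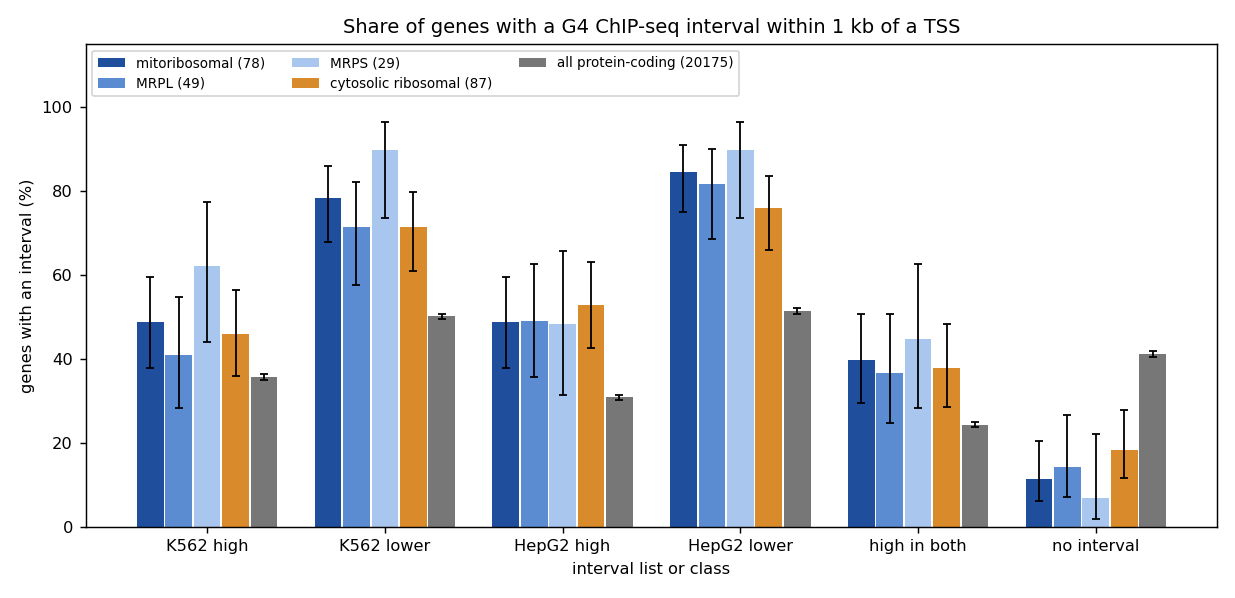
Share of genes (%) with an interval within 1 kb of a TSS, for the 4 lists, for a high-confidence interval in both lines and for no interval in any list; bars are gene sets with their size, and error bars are 95% Wilson intervals that cover the counting of genes only. In every list the bar of the mitoribosomal genes lies above that of all protein-coding genes, and their bar for no interval (11.5%) lies below the 41.1% of all protein-coding genes.

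The most similar group are the genes of the cytosolic ribosome, which makes all other cellular proteins. They were taken by RPL or RPS symbol, which leaves out FAU. The symbols also take in paralogues such as RPL10L, RPL3L, RPS4Y1 and RPS4Y2, which had no interval in any list. Of 87 such genes, 40 had a high-confidence interval in K562 (46%) and 46 in HepG2 (52.9%), close to the 48.7% of mitoribosomal genes in each line. Both lines shared one at 33 (37.9%, 28.5 to 48.4). No interval in any list was found at 16 cytosolic genes (18.4%, 11.6 to 27.8), and the Wilson intervals of both gene families overlapped in each of these measures. A high-confidence interval in 1 line with nothing in the other was found at 3 cytosolic genes for K562 and at 3 for HepG2. Each is a share of 3.45% (1.18 to 9.65), near the 3.2% and 2.43% of all protein-coding genes. The Wilson intervals overlapped those of the mitoribosomal genes here too.

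Where intervals were present, they sat just upstream of the gene. In K562 the centre of the widest high-confidence interval of a member lay at a median of −51.5 bp from the nearest TSS of that gene, with a range from −423 to 375 bp. In HepG2 the median was −54.0 bp, with a range from −413 to 385 bp. Over all protein-coding genes with a high-confidence interval the medians were −61.0 and −72.0 bp. Centres between 150 bp upstream and 50 bp downstream were found at 32 of 38 members in K562 (84.2% against 76.8%) and 30 of 38 in HepG2 (78.9% against 70.9%). The interval covered a TSS of the member at 28 of 38 in K562 (73.7% against 72.4%) and 25 of 38 in HepG2 (65.8% against 59.9%), near the shares over all genes.

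Relative to the canonical transcript, 45 of 50 high-confidence K562 intervals (90%) and 36 of 45 HepG2 intervals (80%) had their centre upstream, which was not computed for other genes. Introns held 4 centres in each line. No high-confidence interval was centred in a coding exon or a 3′ UTR of a member. Several members have TSSs far apart, and some intervals lay at a distant one. Intervals of MRPL34 and MRPL11 far before the canonical TSS were counted as upstream here. From the nearest TSS, the widest interval was centred upstream at 32 of 38 members in K562 (84.2% against 82.9% of all protein-coding genes with one). In HepG2 this was so at 30 of 38 (78.9% against 82%). The widest intervals of MRPL11 lay at a distant TSS next to PELI3, with centres at −27973 bp (K562) and −27909 bp (HepG2) from its canonical TSS. Near its canonical TSS, MRPL11 had an interval in each line that held no complete motif, of which the HepG2 one covers the 136 bases at chr11:66206528-66206663, shown on the minus strand, that of the transcript, with its run of at least 3 G in capitals. The other strand has 3 such runs.
MRPL11: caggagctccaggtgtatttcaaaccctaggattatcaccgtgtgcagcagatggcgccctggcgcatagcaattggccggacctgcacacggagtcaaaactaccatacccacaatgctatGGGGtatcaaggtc
Counted from the canonical TSS only, all counts of members with a high-confidence interval stayed at 38, 38 and 31.

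**Figure D3:**
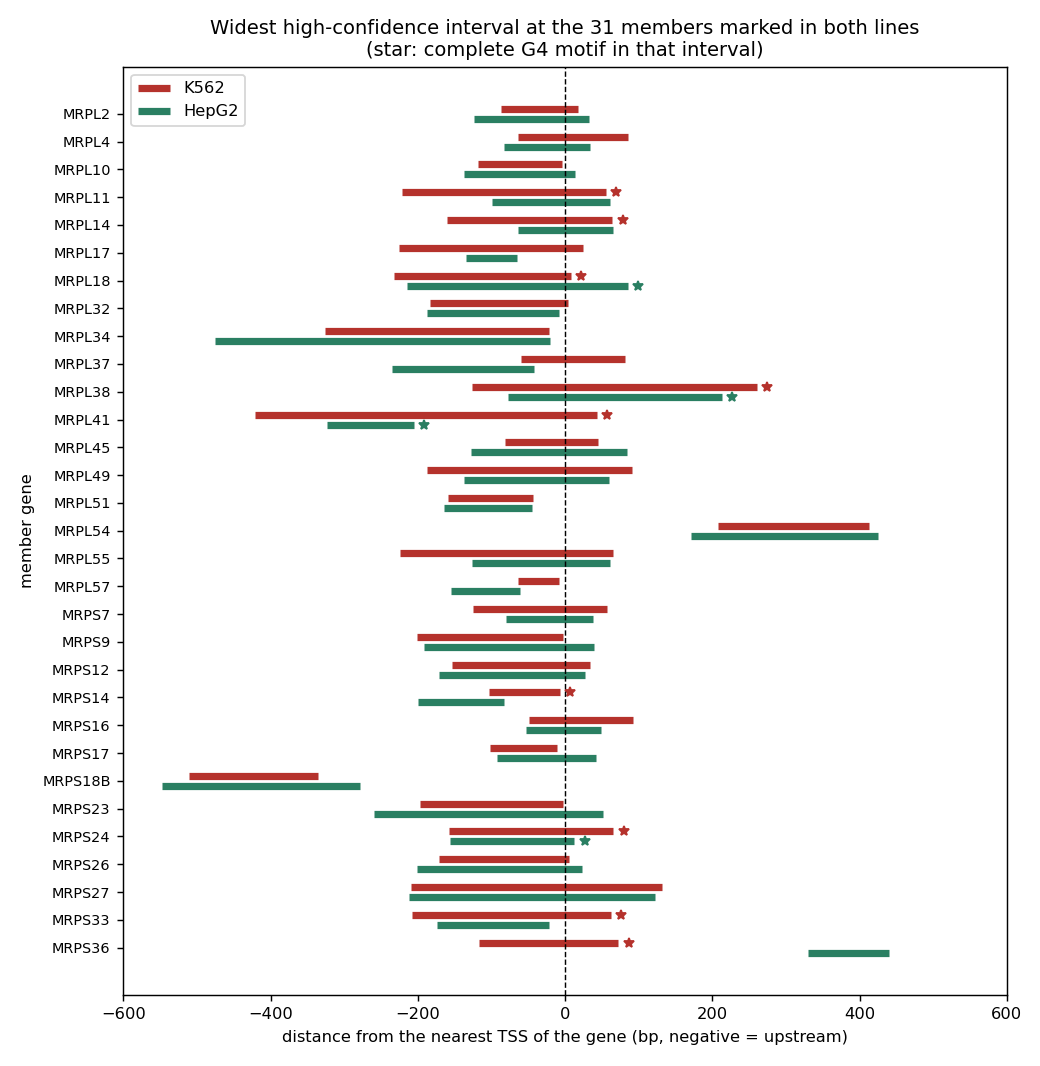
Span of the widest high-confidence interval in K562 (red) and HepG2 (green) at the 31 members with one in both lines, as distance in bp from the gene's nearest TSS (dashed line, negative values upstream); a star marks a complete G4 motif in that interval. Most spans cross or lie just left of the TSS, while those of MRPS18B lie farther upstream (centres at −423 and −413 bp) and those of MRPL54 downstream (310 and 298 bp).

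The median width of the widest high-confidence interval was 188 bp in K562 (range 55 to 465 bp) and 154 bp in HepG2 (35 to 456 bp), against 221 and 200 bp over all protein-coding genes with one. Width is the stretch found in enough replicates and not a height. The widest K562 interval was that of MRPL41, 465 bp (chr9:140445910-140446374), with GC content of 78.7% and the 4 motifs of the stretch printed above. In HepG2 MRPL41 had 2 separate high-confidence intervals, of 118 and 80 bp, and its lower-confidence interval was 489 bp wide. The widest HepG2 interval was that of MRPL34, the homologue of bacterial L34, 456 bp (chr19:17416206-17416661), with GC content of 62.1% and no complete motif. The corresponding K562 interval was 303 bp wide.

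When each member was represented by its widest high-confidence interval, the narrowest in K562 was that of MRPL57, with 55 bp. In HepG2 it was that of MRPS10, the homologue of bacterial S10, with 35 bp. Further intervals of a member could be narrower, such as 19 bp at MRPS14 in K562 and 18 bp at MRPS16 in HepG2. MRPL57 and MRPS10 had a further narrow interval close by, of 54 bp for MRPL57 and 29 bp for MRPS10. None of the intervals of these 2 genes held a motif even with runs of 2 G. Their lower-confidence intervals were single and wider, at 226 bp for MRPL57 in K562 and 321 bp for MRPS10 in HepG2. More than 1 high-confidence interval was seen at 10 members in K562 (26.3% against 18.3%) and 7 in HepG2 (18.4% against 15.5%).

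At the 31 members with high-confidence intervals in both lines, the intervals of the lines overlapped at all 31 (100%, against 96.7% of 4894 protein-coding genes of this kind). The centres of the widest intervals were within 50 bp of each other at 24 of 31 (77.4% against 73.7%), with a median distance of 24 bp (27 bp over all such genes). The largest distance was 534 bp at MRPS36, where K562 had an interval at the TSS and a further one downstream, and HepG2 only the downstream one. The K562 interval was wider at 15 members and the HepG2 interval at 16, whereas over all such genes 62% were wider in K562. The median widths were 189 bp in K562 and 169 bp in HepG2, against 246 and 220 bp. Individual genes differed more. MRPL41 had 465 bp in K562 and 118 bp in HepG2, MRPL17 250 and 70 bp, and MRPL34 303 and 456 bp.

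**Figure D4:**
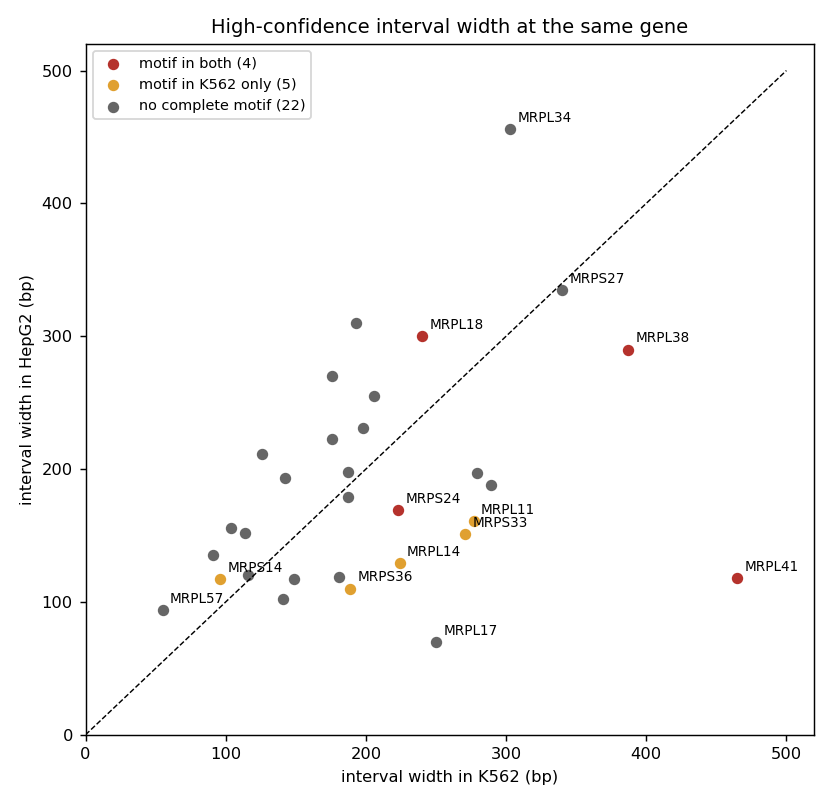
Width in bp of the widest high-confidence interval in K562 (x axis) and HepG2 (y axis) at the 31 members with one in both lines, coloured by the presence of a complete G4 motif; the dashed line marks equal widths. MRPL41 (465 and 118 bp) lies farthest below the line and MRPL34 (303 and 456 bp) farthest above it, and 4 of the 5 genes with a motif in K562 alone lie below it.

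Few member intervals held a complete G4 motif. In K562, 11 of 38 members had one in any of their high-confidence intervals (28.9%), against 38.6% of all protein-coding genes with an interval. In HepG2 it was 4 of 38 (10.5%), against 28%. With the HepG2 intervals widened by 50 bp on either side, 11 of 38 members (28.9%) held a motif, against 38.8%. The same widening in K562 gave 13 of 38 members (34.2%), against 49.4%. In the lower-confidence lists 17 of 61 members in K562 (27.9% against 45.4%) and 16 of 66 in HepG2 (24.2% against 38.8%) held a motif. With runs of 2 G allowed, the members with a motif were 35 in K562 (92.1% against 94.1%) and 32 in HepG2 (84.2% against 89.6%). The GC content of the member intervals had a median of 68.0% in K562 and 64.3% in HepG2, against 71.0% and 67.4%.

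Motifs lay on either strand. In K562, 6 members had motifs on the transcribed gene's own sense strand, 4 on the opposite strand and 1 on both. Over all protein-coding genes with a motif these counts were 1306, 1110 and 359 of 2775. In HepG2, 1 member had a motif on the sense strand and 3 on the opposite strand, against 829 and 782, with 131 on both, over all genes. The motif of MRPL38 was centred at −75 bp from the nearest TSS, on the sense strand. Those of MRPL18 and MRPS24, centred at −180 and −88 bp, were on the opposite strand. At MRPL18, the homologue of the bacterial protein L18, which binds ribosomal RNA, the K562 interval was 240 bp wide and the HepG2 interval 300 bp, and the TSS of TCP1, a chaperonin subunit, was nearer to their centres than that of MRPL18. At MRPL38 the widths were 387 and 290 bp, with GC content of 75.5% in both lines. At MRPS24, the homologue of bacterial S3, they were 223 and 169 bp, with GC content of 70.9% and 71.0%.

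In K562 alone a motif was present at MRPL11, MRPL14, MRPS14, MRPS33 and MRPS36 among the 31 shared members. The motif of MRPL14, the homologue of bacterial L14, lies at chr6:44095267-44095290, minus strand, and that of MRPS14 at chr1:174992610-174992634, plus strand, both printed to show how near these HepG2 intervals came to a motif.
MRPL14: GGGGGaGGGGGagcGGGGGGaGGG
MRPS14: GGGGcGGGGcctGGGccgcctGGGG
The HepG2 high-confidence interval of MRPL14 ended at position 44095253, before its motif, and that of MRPS14 started at 174992644, after its motif. In both genes the lower-confidence HepG2 interval held the motif. At MRPS36 the motif lies in the K562 interval upstream of the TSS, whose exon-free bases are at chr5:68513471-68513586, plus strand, with the G-runs of the motif in capitals.
MRPS36: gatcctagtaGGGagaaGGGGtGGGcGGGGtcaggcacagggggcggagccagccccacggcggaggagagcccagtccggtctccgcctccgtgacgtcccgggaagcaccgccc
A lower-confidence HepG2 interval of 187 bp at the same place held this motif as well.

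Intervals at divergent promoters cannot be assigned to a single gene. A TSS of another protein-coding gene within 1 kb upstream on the opposite strand was annotated for 31 members (39.7%, against 16% of all protein-coding genes). The partners include NDUFS6 and NDUFB5, which encode subunits of respiratory complex I (at MRPL36 and MRPL47), SARS2, the mitochondrial seryl-tRNA synthetase (at MRPS12), PSMA2, a proteasome subunit (at MRPL32), and FAU, which encodes a cytosolic ribosomal protein (at MRPL49, 6 bp away). With such a neighbour, 15 of 31 members (48.4%, 32.0 to 65.2) had a high-confidence interval in both lines, against 47.6% of the 3238 protein-coding genes of this kind. Without it, 16 of 47 members (34.0%, 22.2 to 48.3) had one, against 19.8% of 16937. The share with no interval was 16.1% against 12% with such a neighbour and 8.51% against 46.7% without it. Members at divergent promoters thus had shares near those of other genes at divergent promoters.

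In K562 every high-confidence interval of MRPL10, MRPL18, MRPL32, MRPS7, MRPS17 and MRPS18B lay nearer the TSS of another gene (6 of 38, 15.8% against 13.7%). In HepG2 this was so for MRPL10, MRPL12, MRPL18, MRPL32, MRPL37, MRPL50, MRPL57 and MRPS18B (8 of 38, 21.1% against 15.7%). The distances were small for most of these. The centre at MRPL10 was 62 bp from its own TSS and 31 bp from that of LRRC46 in HepG2. At MRPL12 the other gene was an annotated coding gene without a symbol. Its TSS was 5 bp from the HepG2 centre and that of MRPL12 9 bp, so both start at nearly the same place. The exception was MRPS18B, whose K562 interval was centred 423 bp from its own TSS and 173 bp from that of PPP1R10, which encodes a regulatory subunit of protein phosphatase 1. At MRPL40 the K562 motif lay in an interval nearer HIRA, a histone chaperone gene, and the wider one of 454 bp next to MRPL40 itself held none.

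The promoter sequence of the members was taken as 250 bases before to 50 bases after the canonical TSS. Its GC content had a median of 59.7% (range 43.3 to 82.0%), against 63.3% over all protein-coding genes. By class the median was 62% at members with high-confidence intervals in both lines and 52.3% at those without any interval. Over all protein-coding genes the medians of these classes were 67.7% and 55.3%. At the 7 members with high confidence in K562 and lower confidence in HepG2 it was 73.7% (70.3% over all genes), and at the 6 of the reverse class 60.5% (62.3%). The ranges of the classes overlapped widely. MRPS6 had the highest GC content, 82.0%, with a high-confidence interval in K562 and lower-confidence ones in HepG2. MRPL54, at 47.3%, had high-confidence intervals in both lines. The widest of each line was centred downstream of its TSS, and K562 had a further one upstream.

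**Figure D5:**
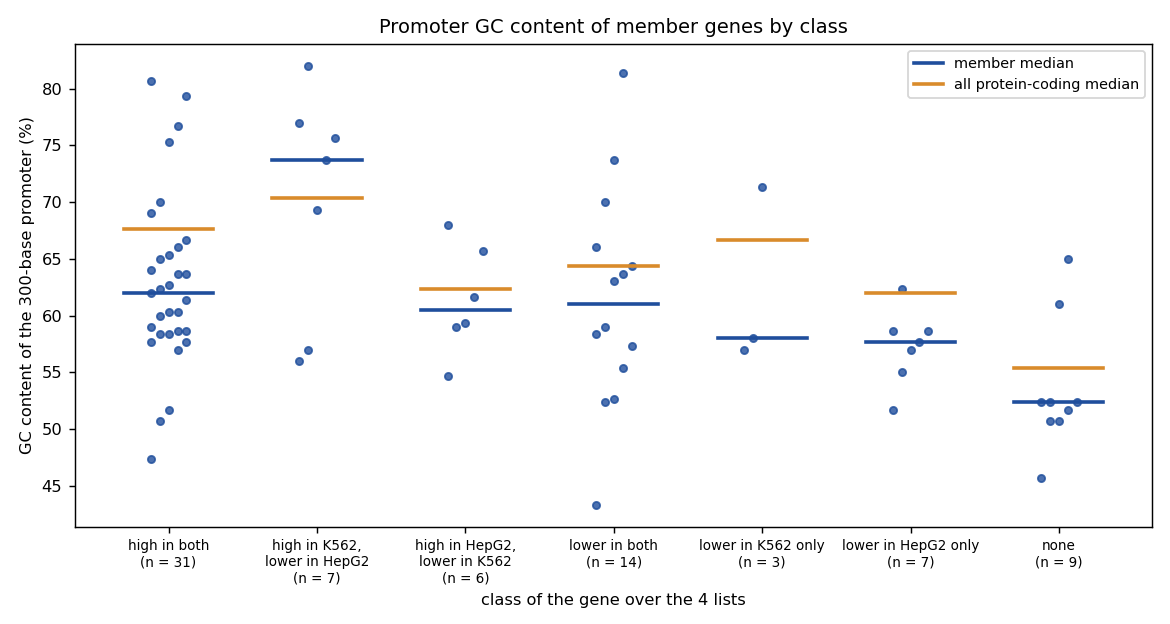
GC content (%) of member promoters from 250 bases before to 50 after the canonical TSS, by class over the 4 lists; points are genes, blue lines member medians and orange lines medians of all protein-coding genes of that class, and MRPL52, alone in its class, is not drawn. The 9 members without an interval have a median of 52.3%, and the classes overlap.

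A complete G4 motif was present in 14 member promoters (17.9%, against 33.6% of all protein-coding promoters). Of those 14, 8 had a high-confidence interval in both lines (57.1%, 32.6 to 78.6) and 0 lacked an interval altogether (upper Wilson bound 21.5%), whereas over all protein-coding genes with a promoter motif 27.4% had an interval in both and 31.1% had none. Among the 64 members without a promoter motif, 23 had a high-confidence interval in both lines (35.9%, against 22.7% of such genes). Of the 31 members marked in both lines, 8 held a complete motif in this window at the canonical TSS (25.8%), against 37.9% of the 4894 protein-coding genes marked in both. MRPL11 and MRPL18, counted without one here, have motifs near another of their TSSs.

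The promoters were searched on both strands for 4 short cores of factors known at such genes. A match is only a description of the letters and does not show that a factor was bound. The YY1 core, AAGATGGCG, was present in 13 members (16.7%, against 2.81% of all protein-coding promoters). In 10 of these it lay downstream of the TSS on the sense strand (12.8% against 1.83%), in MRPL22, MRPL38, MRPL42, MRPL46, MRPL50, MRPS10, MRPS18A, MRPS18B, MRPS24 and MRPS30. In 9 of the 10, all but MRPL42, the ATG of the core was an annotated start codon of the gene. Over all protein-coding genes with the core in this place, this was so for 267 of 369. The 13 members were spread over the classes, with 4 of them in both high-confidence lists and 1, MRPL46, without any interval, against 226 and 68 of the 567 protein-coding genes with the core.

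The ETS core, CCGGAAGT, was present in 12 members (15.4% against 6.09%), and 3 of these had a high-confidence interval in both lines (25%, 8.89 to 53.2, against 38% of all genes with the core). The NRF1 core, CGCATGCG, was present in MRPL10, MRPL17, MRPL22 and MRPS18C only (5.13% against 2.82%). MRPL10 and MRPL17 had high-confidence intervals in both lines, as did 44.1% of all genes with the core, and MRPL22 and MRPS18C had lower-confidence intervals in HepG2 only. The SP1 core, GGGGCGGG, which can overlap a G4 motif, was present in 31 members (39.7% against 33.6%). With it, 15 of 31 members had a high-confidence interval in both lines (48.4%, 32.0 to 65.2, against 36.4% of all genes with the core).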

How the data were processed

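G4 ChIP-seq and input libraries of K562 and HepG2 were mapped by the authors to hg19 with BWA after trimming with cutadapt, duplicates were removed, and MACS2 peaks (q-value limit 0.05) of single replicates were combined with bedtools. The values deposited by the authors are interval positions in bp, in 4 lists. From there, intervals were compared with GENCODE version 44 on GRCh37, which has the chromosome names and lengths of hg19. Intervals were scored within 1 kb of every TSS of a gene, and for several intervals the widest was described. Sequence was read from the same genome. The functions equalled a direct search on 2000 simulated overlaps and 4000 simulated motif calls in 100% of cases. Tools were Python 3.11.15, scipy 1.17.1, pysam 0.24.0 and samtools 1.23.1.

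The members and gene lists were chosen with earlier results of these data known. All members were named by class. Values were given for members with a motif in both lines, with an interval in 1 line only, with the widest or narrowest interval, with none, and with intervals nearer another gene. Further genes and sequences, such as MRPS26, MRPS23, MRPL14 and MRPS14, were picked once their values were known. Alternatives covered TSS sets, windows, minimum widths, overlap and motif definitions.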

Additional observations from a re-analysis of the deposited data

How the results depend on the processing

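No paired analysis was possible because the lists are merged over replicates, and leaving out a replicate was not possible for the same reason. Of 82 alternatives, 72 kept the count within 1.5 times the reported one, or the median within its order-statistic interval. These include narrower windows, other TSS sets and minimum widths for every count of members in a list. The others concern definitions. Called on the lower-confidence lists, 58 members were shared by both lines (74.4% against 42.5% of all protein-coding genes, 31 as reported). With absence called on the high-confidence list alone, 7 members were marked in K562 only (8.97% against 11.4%, 0 as reported). Those marked in HepG2 only were also 7 (8.97% against 6.53%, 1 as reported). The count of members with a complete motif rose with runs of 2 G, to 35 in K562 (92.1% against 94.1%) and 32 in HepG2 (84.2% against 89.6%). With loops of up to 12 bases it rose to 7 in HepG2 (18.4% against 43.7%). With intervals widened by 50 bp it rose to 11 in HepG2 (28.9% against 38.8%). In K562 both of these changes gave 13 members (34.2%), within 1.5 times the reported count. The K562 shares over all protein-coding genes were then 55% with the longer loops and 49.4% with the widening. From the canonical TSS the median positions were −85.0 bp in K562 and −93.5 bp in HepG2. Promoters with a motif numbered 33 when 500 bases either side of the TSS were read (42.3% against 60.3%). Depth and replicate spread are unknown, and so the strength of the signal in an interval and the libraries behind it cannot be compared between lines. The difference in replicate number between the lines (8 and 9) and the cell lines cannot be told apart. The paper states that earlier K562 G4 ChIP-seq data were considered as well. The lists do not say whether they include such data, and a difference in source could not be told apart from the line either.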

Other observations

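Other genes of mitochondrial translation were counted from lists taken from textbook knowledge. Over all protein-coding genes, 24.3% had a high-confidence interval in both lines and 41.1% had no interval in any list. Of 5 mitoribosomal protein genes with other symbols, AURKAIP1 had a high-confidence interval in both lines. CHCHD1 and DAP3 had one in K562 with a lower-confidence interval in HepG2, PTCD3 showed the reverse, and GADD45GIP1 had a lower-confidence interval in K562 only. Among 25 assembly factors of the mitoribosome, 10 had a high-confidence interval in both lines (40.0%, Wilson interval 23.4 to 59.3), including the rRNA methyltransferase gene TFB1M and the GTPase genes MTG1 and MTG2, and FASTKD2 and MRM3 had no interval. Among 15 translation factors, 4 had one in both lines (26.7%, 10.9 to 52.0), near the 24.3% of all protein-coding genes. These 4 were MTIF2, MTRF1L, MTRFR and TUFM. The initiation, elongation and release factors were spread over the other classes, with MTRF1 alone lacking any interval and OXA1L, the membrane insertase gene, marked with high confidence in HepG2 and in neither list in K562.

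Mitochondrial aminoacyl-tRNA synthetase genes had high-confidence intervals in both lines at 10 of 19 (52.6%, 31.7 to 72.7), against 24.3% of all protein-coding genes. None of the 19 lacked an interval (upper Wilson bound 16.8%), against 41.1%. The Wilson intervals of these lists overlap that of the mitoribosomal genes (29.6 to 50.8), and no difference between lists was tested.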
